A study of Homo sapiens with 6 samples.

Results

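CDK1 and 9 genes that switch it on or off at the entry into mitosis were followed in MDA-MB-231 cells treated with Parishin B (PB). The genes were chosen by name: the kinase CDK1, its partners cyclin B1 (CCNB1), cyclin B2 (CCNB2) and cyclin A2 (CCNA2), the activating phosphatases CDC25A, CDC25B and CDC25C, the inhibitory kinases WEE1 and PKMYT1, and the polo-like kinase PLK1. All 10 symbols matched 1 row each of the 61806 genes in the deposited table, and all 10 passed the filter on low values. MDA-MB-231, the human line used for both groups, comes from a triple-negative breast cancer. The control group held 3 samples, and the PB group held 3 samples collected after 24 h with 20 μM PB, a phenolic compound from Gastrodia elata. The vehicle of the control samples is not given for RNA-seq in the sources used here, nor whether the 3 samples of a group were separate cultures, so the p-values measure the spread between these samples, which may be technical.

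CDK1 drives cells from G2 into mitosis once it has bound a cyclin and lost its inhibitory phosphates. WEE1 and PKMYT1 add these phosphates, the CDC25 phosphatases remove them, and PLK1 tips the balance by acting on both sides. Messages of most of these genes are made late in the cell cycle, when the MuvB complex with B-Myb (MYBL2) and FOXM1 acts on their promoters, and are held down in quiescent cells by the DREAM complex, which contains the same MuvB core. In bulk RNA, fewer cells in G2 and mitosis and less of each message per cell cannot be told apart.

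The promoters of these genes are shown because most of the genes moved together. RefSeq promoter windows (GRCh38.p14, 250 bases before to 50 after each start) were held for 8 of the 10 genes (all but WEE1 and PKMYT1), with 15 windows in all, since CDK1, CDC25B and CDC25C have several starts. The stretches below run from base -120 to base -1 before the start. They are those of CDK1, of CCNB1 with the largest decrease, of its relative CCNB2, of PLK1, and of CDC25B with the smallest decrease. Capitals mark CCAAT boxes on either strand (ATTGG when inverted) and the CHR element TTTGAA or its variants TTTAAA and TTCGAA. For CDK1 and CDC25B the window with the most matches was taken.
CDK1 (chr10:60778358-60778477, plus strand): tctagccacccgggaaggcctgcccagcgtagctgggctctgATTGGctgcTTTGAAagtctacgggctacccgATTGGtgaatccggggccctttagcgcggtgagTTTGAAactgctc
CCNB1 (chr5:69167030-69167149, plus strand): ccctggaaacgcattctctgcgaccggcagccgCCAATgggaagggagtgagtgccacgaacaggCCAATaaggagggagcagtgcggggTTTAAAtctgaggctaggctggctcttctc
CCNB2 (chr15:59105026-59105145, plus strand): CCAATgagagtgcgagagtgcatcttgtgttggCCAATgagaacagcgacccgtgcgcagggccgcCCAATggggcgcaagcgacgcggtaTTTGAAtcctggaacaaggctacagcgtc
PLK1 (chr16:23678769-23678888, plus strand): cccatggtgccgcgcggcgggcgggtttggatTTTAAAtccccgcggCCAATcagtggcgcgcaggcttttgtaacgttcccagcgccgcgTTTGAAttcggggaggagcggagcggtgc
CDC25B (chr20:3796190-3796309, plus strand): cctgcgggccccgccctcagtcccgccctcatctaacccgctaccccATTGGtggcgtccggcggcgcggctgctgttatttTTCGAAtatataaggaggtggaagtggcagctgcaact

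The CHR is the site bound by MuvB complexes, and the CCAAT box is bound by NF-Y. CCAAT stood in a window of 8 of the 8 genes and in 11 of their 15 windows, against 34.6% of 34943 promoter windows of the same length. TTTGAA stood in 6 of the 15 windows, those of CDK1, CCNB2, CDC25C and PLK1, against 15.2% of all windows, and both motifs together stood in the same 6 windows against 5.92%. In CCNB2 and PLK1 the TTTGAA lay at the same distance, from base -29 to base -24. TTTAAA was found in 5 of the 15 windows against 12.2%, and TTCGAA in 1 window, of CDC25B, against 1.45%. Both variants read the same on either strand and were counted once. The E2F site, searched on both strands as TTCCCGC, as the form TTGGCGC, as the form TTCGCGC and as the form TTGCCGC, stood in 7 of the 15 windows, of 5 genes, against 12.9%, and its TTGGCGC form can share letters with an inverted CCAAT box. Windows of CDK1 and windows of CDC25C overlap in part, so some sites were counted in more than 1 window. A match of letters does not show that a factor was bound.

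The messages of nearly the whole set were lower with PB. A gene was called when its adjusted p did not exceed 0.05 and its log2 fold change reached 1 up or down (edgeR's quasi-likelihood test on the raw counts of the 24200 genes with a mean of at least 0.1 FPKM, fragments per kilobase of exon scaled to the total count of the sample). Of the 10 genes, 9 were called lower, against a background of 6.73% of all tested genes, and 0 were called higher, against 5.36%. The set was chosen with earlier results of these data known, so the excess is not independent evidence. DESeq2 and limma also called 0 higher, as did edgeR's test with no fold threshold. The remaining gene, CDC25B, passed the p threshold alone, as all 10 did, against 26.1% of tested genes that were lower at that p. For all 10 the highest PB value lay under the lowest control value in FPKM, which held for 21.6% of tested genes. These shares were taken over all tested genes, down to a mean of 0.1 FPKM, and were not matched to the 10 genes for count depth. The median log2 fold change of the 10 genes was -1.53, while that of all tested genes was 0.011. Together the genes took 1693 to 1727 CPM (counts scaled to the library total) in the control samples and 610 to 636 CPM in the PB samples. CDK1 was among the genes that the study picked out on these samples, so its change is not independent evidence. The study also measured CDK1 and cyclin B1 protein by Western blot, in MDA-MB-231 cells and in mouse lungs. It reports that both proteins rose in the lungs of mice given PB, and that PB blocked MDA-MB-231 cells in G2/M. For the blots of the cells its text states no direction, only that they matched the flow cytometry. The blots measured protein, while the messages of both genes were lower here, and the difference was not tested.

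The plot of levels by sample shows how narrow the groups were. The coefficient of variation of FPKM over the 3 samples was at most 3.54% in the control group and at most 5.71% in the PB group for these genes. The counts behind the values ran from 90 for PKMYT1 in a PB sample to 9764 for CCNB1 in a control sample, with 15681655 to 21986948 counts per sample in all.

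**Figure D1:**
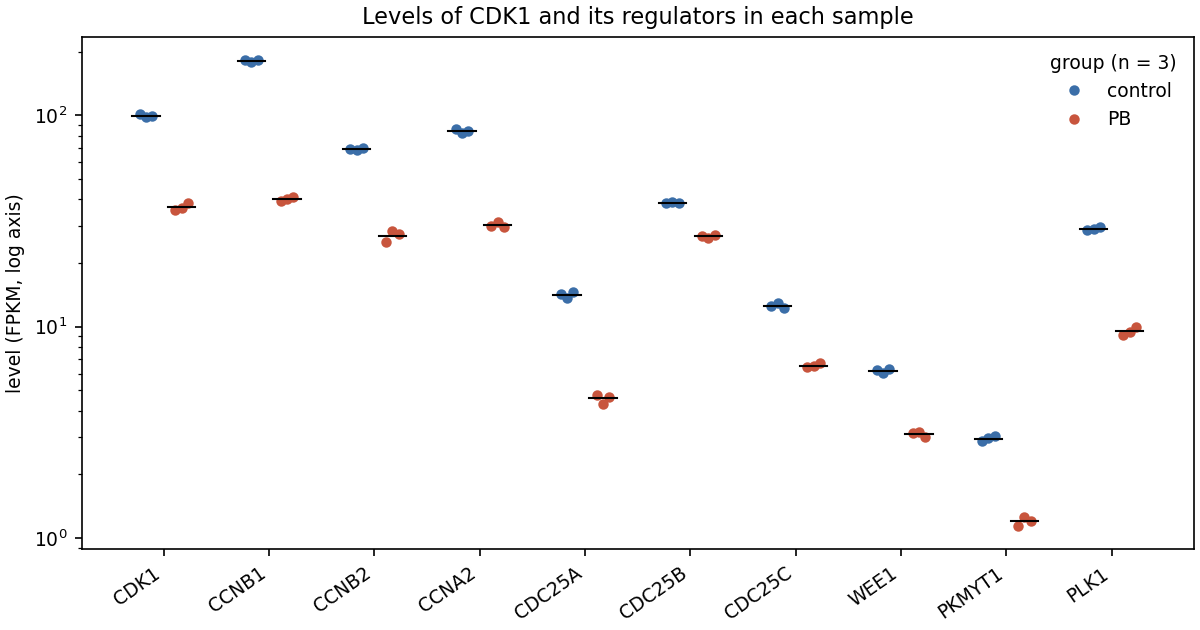
Level of each of the 10 genes in FPKM (log axis) in the 3 control samples (blue) and the 3 PB samples (red), with black bars for the group means. For every gene all 3 red points lie under all 3 blue points, with the widest step for CCNB1 and the narrowest for CDC25B.

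CDK1, the kinase at the centre of the set, is placed by the table on chromosome 10 from 60778331 to 60794852 (hg38). Its level was 101, 98.4 and 98.9 FPKM in control replicates 1, 2 and 3, and 35.7, 36.3 and 38.4 FPKM in PB replicates 1, 2 and 3. The PB samples were far below the control samples, without overlap. The log2 fold change was -1.57, with a standard error of 0.028, so that 33.8% of the control level was left, and 5.63% of all tested genes had a value as low or lower.

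The mitotic cyclins did not fall evenly. CCNB1 (chromosome 5, 69167135 to 69178245), the cyclin that carries CDK1 into the nucleus at mitotic entry, measured 183, 178 and 183 FPKM in the control samples and 39.2, 40.1 and 41.0 FPKM in the PB samples. This was the largest decrease of the 10 genes, in the 13 alternative fits as well, with a log2 fold change of -2.31 and a standard error of 0.029. Of the control level, 20.2% was left. CCNB2 (chromosome 15, 59105126 to 59125045), a B-type cyclin found mainly at the Golgi, measured 69.3, 68.9 and 69.8 FPKM in the control samples and 25.2, 28.2 and 27.3 FPKM with PB. Its log2 fold change was -1.50 (standard error 0.034), less than that of its relative and close to that of CDK1. CCNA2 (chromosome 4, 121816444 to 121823883), which serves CDK2 in S phase and CDK1 in G2, measured 86.2, 82.2 and 84.4 FPKM in the control samples and 29.9, 31.3 and 29.6 FPKM with PB. Its log2 fold change was -1.61 (standard error 0.033), again close to that of CDK1. CCNA2 shares 578 bases with EXOSC9 on the opposite strand, which had 903 to 1227 counts in the control samples against 3863 to 5097 for CCNA2.

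The 3 CDC25 phosphatases, which remove the inhibitory phosphates from CDK1, differed most among themselves. CDC25A (chromosome 3, 48157146 to 48188417), which acts from the G1/S transition onwards, measured 14.2, 13.6 and 14.6 FPKM in the control samples and 4.74, 4.32 and 4.66 FPKM with PB. It fell, and its log2 fold change was -1.76 (standard error 0.057). CDC25B (chromosome 20, 3786772 to 3806121), thought to start CDK1 activation at the centrosome, measured 38.3, 39.0 and 38.5 FPKM in the control samples and 26.8, 26.3 and 27.3 FPKM with PB. The groups did not overlap, but 63.3% of the control level was left (log2 fold change -0.66, standard error 0.034). This was the smallest change of the set and short of the fold threshold.

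CDC25C (chromosome 5, 138285269 to 138338355), which acts on cyclin B1-CDK1 in mitosis, measured 12.6, 12.9 and 12.3 FPKM in the control samples and 6.41, 6.49 and 6.75 FPKM with PB. Its log2 fold change, -1.07 with a standard error of 0.060, was just past the threshold. It was -0.94 with library size alone, -0.93 by limma on log2(FPKM + 0.1) and -0.74 when scaled by housekeeping genes, so the call was lost under these 3 settings while the direction was kept. CDC25C also overlaps FAM53C on the opposite strand over 6421 bases. FAM53C had 1092 to 1418 counts in the control samples, above the 682 to 902 of CDC25C, with a log2 fold change of 0.046 (standard error 0.042), and the strandedness of the counting is not given in the sources used here.

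The kinases that hold CDK1 inactive fell together with it. WEE1 (chromosome 11, 9573670 to 9593457), the nuclear kinase that puts an inhibitory phosphate on a tyrosine of CDK1, measured 6.23, 6.05 and 6.30 FPKM in the control samples and 3.13, 3.16 and 3.01 FPKM with PB. The groups did not overlap, with a log2 fold change of -1.13 (standard error 0.053), and the call was lost by limma (-0.98) and with housekeeping scaling (-0.80). With library size alone the log2 fold change of WEE1 was -1.00001, so that call only just reached the threshold. PKMYT1 (chromosome 16, 2968024 to 2980479), the membrane-bound partner of WEE1, had the lowest level of the set, with 2.88, 2.96 and 3.03 FPKM in the control samples and 1.14, 1.26 and 1.21 FPKM with PB. Its log2 fold change was -1.43 with the largest standard error of the set, 0.108. PKMYT1 shares 4215 bases with PAQR4 on the opposite strand, which had a log2 fold change of -1.18 (standard error 0.109), so reads of the 2 genes may not have been told apart.

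PLK1 (chromosome 16, 23677656 to 23690367), which marks WEE1 for destruction and activates CDC25C, measured 28.7, 28.8 and 29.6 FPKM in the control samples and 9.09, 9.47 and 9.92 FPKM with PB. The PB samples lay well below all control samples, with a log2 fold change of -1.74 and a standard error of 0.040. The adjusted p-values of the 10 genes in edgeR's test had a log10 between -1311 for CCNB1 and -38.1 for PKMYT1. These values are so small because edgeR shared 1 spread among nearly all genes, and limma on log2(FPKM + 0.1) gave adjusted p-values from 7.397e-08 to 2.261e-05 for the same genes. For each gene an exact two-sided permutation test of FPKM gave p = 0.1, the smallest that 3 samples against 3 can reach.

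The size of the changes depended on how the libraries were scaled. Over all tested genes, 55.7% of the calls were lower with TMM scaling, 42.5% with library size alone and 27.2% with scaling by 16 housekeeping genes, and the median log2 fold change of all genes moved from 0.011 to 0.14 and 0.34. A change of scaling alone shifts every gene by about the same step, so the 10 genes had to move with the rest. Their median was -1.53, -1.40 and -1.20, and minus the median of all genes this came to -1.54, -1.54 and -1.53. The number called lower was 9, 8 and 7.

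**Figure D2:**
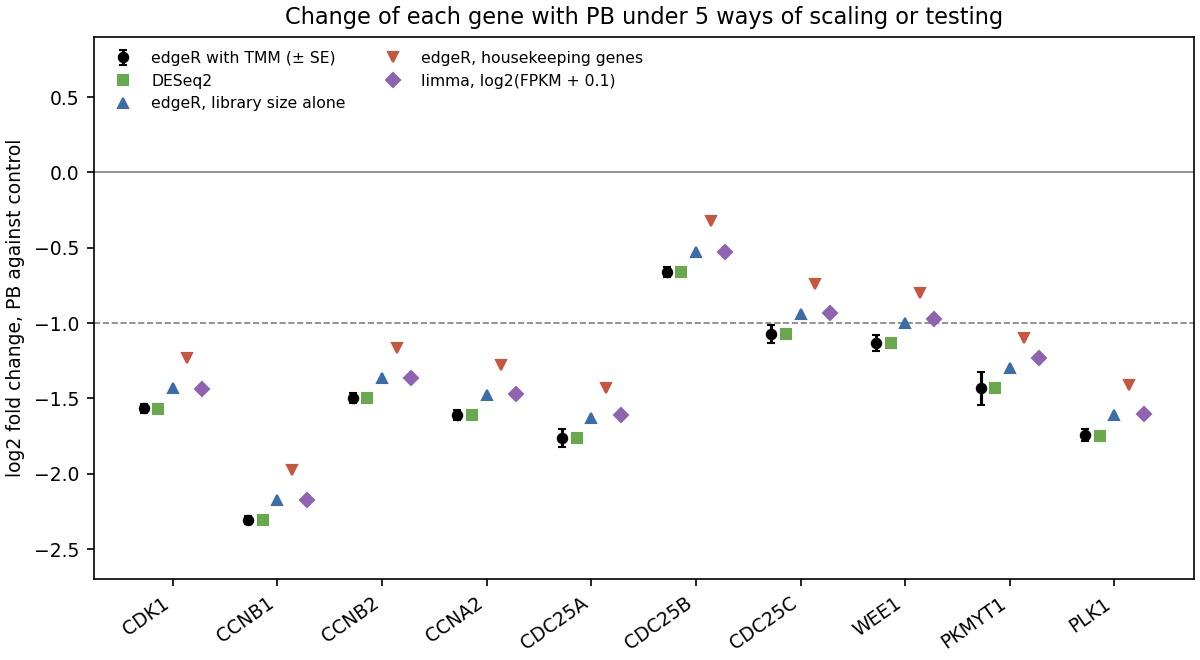
Log2 fold change of PB against control for each gene by edgeR with TMM (black, with standard errors), DESeq2, edgeR with library size alone, edgeR scaled by 16 housekeeping genes, and limma on log2(FPKM + 0.1), with the dashed line at the fold threshold of -1. All points lie under 0, CCNB1 is lowest throughout, and CDC25C and WEE1 lie close to the line.

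Ratios within a sample do not depend on this scaling, and they set each gene beside CDK1. The ratio of CCNB1 to CDK1 in FPKM was 1.80, 1.81 and 1.85 in the control samples and 1.10, 1.10 and 1.07 in the PB samples. On the log2 scale the PB mean minus the control mean was -0.74. CCNA2 kept its ratio to CDK1, with a difference of -0.040 between group means and overlapping samples (exact two-sided permutation test, p = 0.7). CCNB2, with 0.071 above the control ratio, did not overlap but differed by less than the spread of the PB samples (SD 0.077, n = 3).

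For PLK1 and CDC25A the PB mean minus the control mean of the log2 ratio to CDK1 was -0.18 and -0.19. For the others the ratio was higher with PB, by 0.14 for PKMYT1, 0.44 for WEE1, 0.49 for CDC25C and 0.91 for CDC25B. CDC25B stood at 0.388 ± 0.0099 of the CDK1 level in the control group and at 0.728 ± 0.020 with PB (SD, n = 3), although its own level was lower. Of 14 ratios and shares computed, 13 did not overlap between groups, each with p = 0.1 by the exact permutation test (the smallest possible) and 0.108 after Benjamini-Hochberg adjustment over the 14, which share genes with each other. Of the 9 ratios to CDK1, 8 did not overlap, but neither did the ratio to CDK1 of 81.1% of all other tested genes, so this count says nothing particular about these genes.

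**Figure D3:**
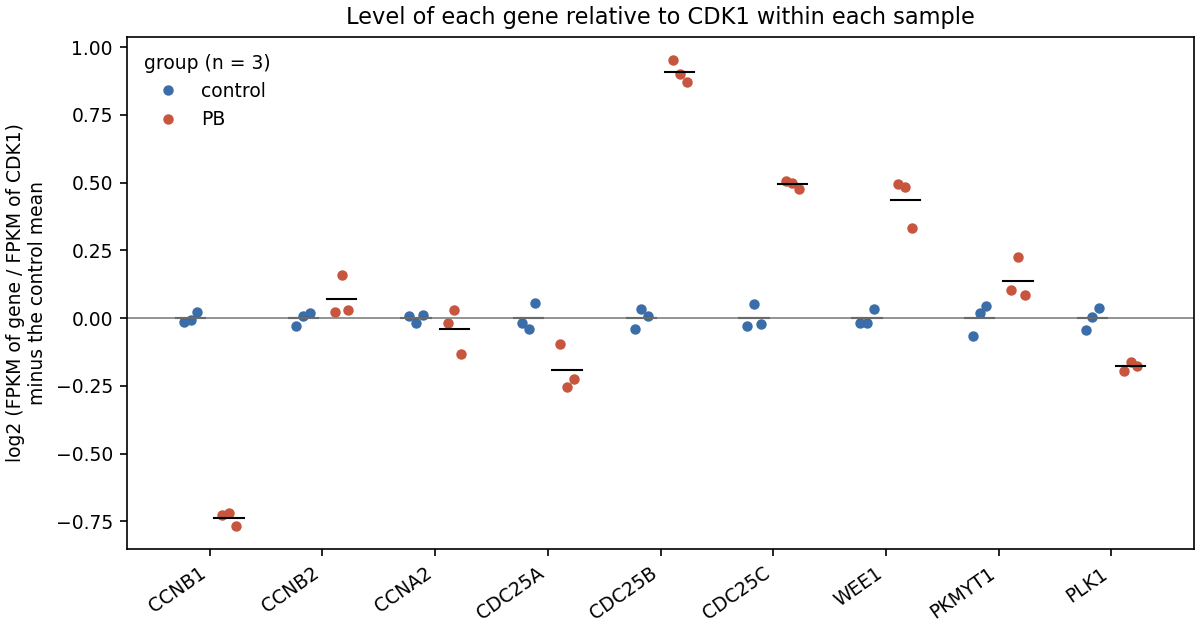
Log2 of the FPKM of each gene over that of CDK1 in the same sample, minus the control mean, for 3 control samples (blue) and 3 PB samples (red), with bars for group means. CCNB1 lies at -0.74 on average with PB and CDC25B at 0.91, while CCNA2 overlaps.

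Within the B-type cyclins, CCNB1 made up 72.5%, 72.1% and 72.3% of the summed FPKM in the control samples and 60.8%, 58.7% and 60.0% in the PB samples. CCNB1 stayed the major B-type cyclin message, by a smaller margin. Within the CDC25 family, CDC25B made up 59.1% ± 0.42 in the control group and 70.7% ± 0.21 with PB (SD, n = 3). CDC25A made up 21.6% ± 0.80 and then 12.1% ± 0.43 (SD, n = 3), and CDC25C went from 19.3% ± 0.42 to 17.3% ± 0.33 (SD, n = 3). Between the inhibitory kinases the share of WEE1 was 67.7% ± 0.64 in the control group and 72.0% ± 1.10 with PB (SD, n = 3).

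**Figure D4:**
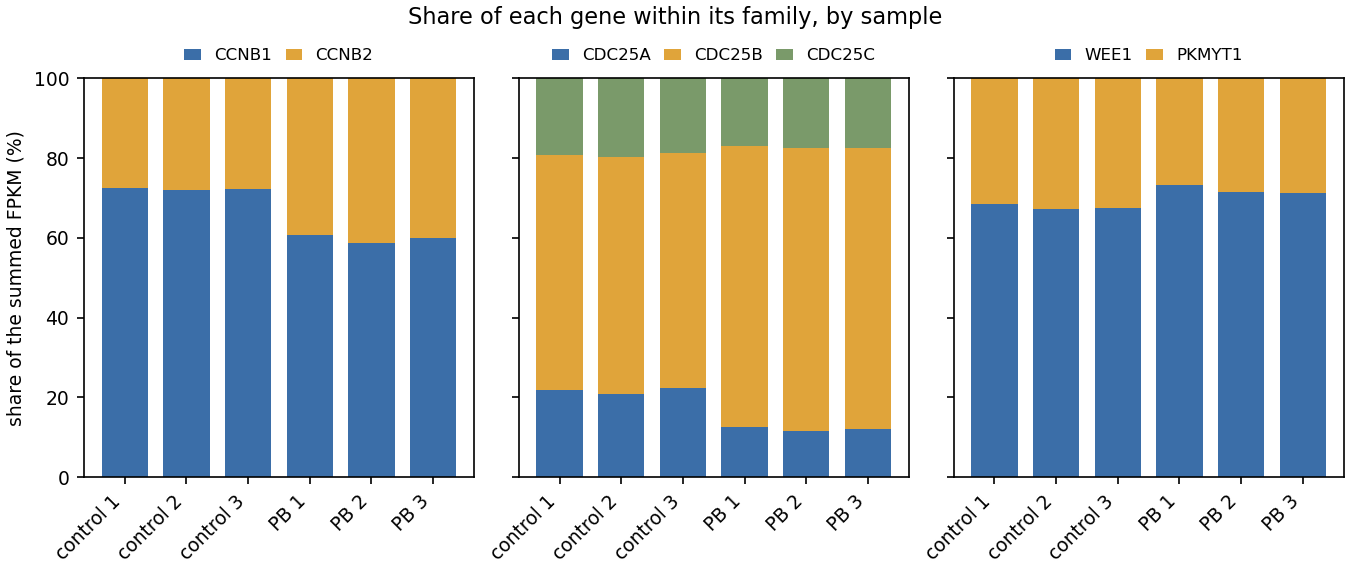
Share of the summed FPKM held by each gene within the B-type cyclins, the CDC25 phosphatases and the inhibitory kinases, 1 bar per sample on an axis from 0 to 100%. The share of CCNB1 is near 72% in the control bars and near 60% in the PB bars, and that of CDC25B is larger in all 3 PB bars.

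The order of the levels shifted in the middle. In the control samples the order in FPKM was CCNB1, CDK1, CCNA2, CCNB2, CDC25B, PLK1, CDC25A, CDC25C, WEE1 and PKMYT1, and the samples of no neighbours overlapped. With PB the top 4 genes kept their places, but CCNB2 (26.9 ± 1.54 FPKM) and CDC25B (26.8 ± 0.465 FPKM, SD, n = 3) overlapped and were not told apart. CDC25C (6.55 ± 0.178 FPKM) stood above CDC25A (4.57 ± 0.223 FPKM), the reverse of the control order (12.6 ± 0.286 and 14.1 ± 0.501 FPKM, SD, n = 3). CCNB1, at 181 FPKM well clear of CDK1 at 99.6 FPKM in the control group, stood only slightly above it with PB (40.1 and 36.8 FPKM). FPKM divides by the deposited exonic length (2433 bases for CCNB1, 3909 for CDK1), so the order between genes depends on that length. In raw counts CCNB1 had 1515, 1531 and 1891 in the PB samples, below the 2217, 2227 and 2845 of CDK1.

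The genes with the profile most like CDK1 over the 6 samples were KIF4A, ARL6IP1, KIF20B, ZNF542P and GTSE1, out of 13532 other genes with a mean of at least 1 FPKM. Likeness was the root mean square difference of log2(FPKM + 0.1) after centring each gene, and it was 0.026 for KIF4A and 0.034 for GTSE1. KIF4A, for example, had a mean of 48.9 FPKM without PB and 18.5 FPKM with it. Within the set CCNA2 ranked 22 and CCNB2 ranked 32, while CCNB1 ranked 886 and CDC25B ranked 1403. With 2 groups, such a likeness rests mostly on the size of the group difference.

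Other genes around mitotic entry were taken from 7 lists of 94 genes, of which 90 were tested. Of these, 21 were called lower (23.3%, against 6.73% of all tested genes) and 2 higher (2.22%, against 5.36%), and their median log2 fold change was -0.42, against 0.011 for all tested genes. The lists too were chosen with earlier results of these data known, so this excess is not independent evidence. The same backgrounds of 6.73% and 5.36% stand beside each list count that follows. The share called lower was smaller than among CDK1 and its 9 regulators, a difference that was not tested. In transcription of mitotic genes, 3 of 14 were lower. MYBL2, which binds MuvB in S phase, went from 65.0 to 15.0 FPKM (log2 fold change -2.25, standard error 0.039), and FOXM1, which takes over in G2, from 39.1 to 16.4 FPKM (-1.39, standard error 0.034). TFDP1, the E2F partner, was the other at -1.27, and the MuvB subunit LIN54 was not called (-0.12, but 0.21 with housekeeping scaling), with 6.87 to 7.23 FPKM in the control samples and 6.89 to 7.23 FPKM with PB. The remaining MuvB subunits were not called either but were less flat. LIN9 was at -0.60, RBBP4 at -0.50, LIN52 at -0.19 (0.14 with housekeeping scaling) and LIN37 at 0.54.

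Among the CDK-activating kinase, Cks subunits and further cyclins, 4 of 9 were lower. CCNF, an F-box protein with a cyclin fold, led with -1.90, before CKS2, a small subunit bound to CDK1, which reached 82.2 FPKM with PB (-1.73), CCNA1 (-1.69) and CDK2 (-1.34). CDK7, the kinase that adds the activating phosphate to CDK1, was not called, with 39.9 to 42.1 FPKM in the control samples and 48.2 to 51.5 FPKM with PB (log2 fold change 0.15). In the arms that activate PLK1 and inhibit PP2A, 5 of 12 were lower and 0 higher. AURKA, the kinase that activates PLK1, went from 91.4 to 26.1 FPKM (-1.94), its cofactor BORA fell with -1.45, TPX2 with -1.78, GTSE1 with -1.62, and MASTL, the Greatwall kinase, with -1.21.

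Of 22 tested checkpoint kinases and restraints, 2 were lower and 1 higher, shares of 9.09% and 4.55% that lie near the backgrounds of 6.73% and 5.36%, so the count is no result about the group. SFN (14-3-3 sigma), which can hold CDK1 in the cytoplasm, had 4.41, 4.46 and 4.03 FPKM in the control samples and 0.10, 0.10 and 0.20 FPKM with PB, and CLSPN, the adaptor of CHEK1, fell with -1.69. The gene called higher was TRIB3, which encodes the protein PB was selected to bind, with a log2 fold change of 3.53 in its message. By Western blot the study reports no significant effect of PB on TRIB3 protein in MDA-MB-231 cells. CDKN1A, a CDK inhibitor, was not called (-0.30, but 0.035 with housekeeping scaling), nor was CHEK1 (-0.73) or GADD45A (0.56).

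Of 23 genes that turn mitotic regulators over, 4 were lower (17.4%, against 6.73%). These were CDC20, which starts cyclin B1 destruction (108 to 33.9 FPKM, -1.80), the ubiquitin-conjugating enzymes UBE2C (-1.69) and UBE2S (-1.12), and FBXO5, an inhibitor of the anaphase-promoting complex (-1.27). Among the other polo-like kinases PLK2 (-2.02) and PLK4 (-1.23) were lower, whereas PLK3 had 1.22, 1.47 and 1.64 FPKM in the control samples and 2.63, 2.89 and 3.14 FPKM with PB (0.86) and was not called. Of 7 interphase cyclins and kinases, CCNE2 was lower (-1.12) and CCND2 higher (0.367 to 1.96 FPKM, 2.29). With housekeeping scaling TFDP1 (-0.94), MASTL (-0.87), FBXO5 (-0.94), UBE2S (-0.78), PLK4 (-0.90) and CCNE2 (-0.79) lost their calls and PLK3 (1.19) gained one, and UBE2S (-0.98) and CCNE2 (-0.99) also lost theirs with library size alone.

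**Figure D5:**
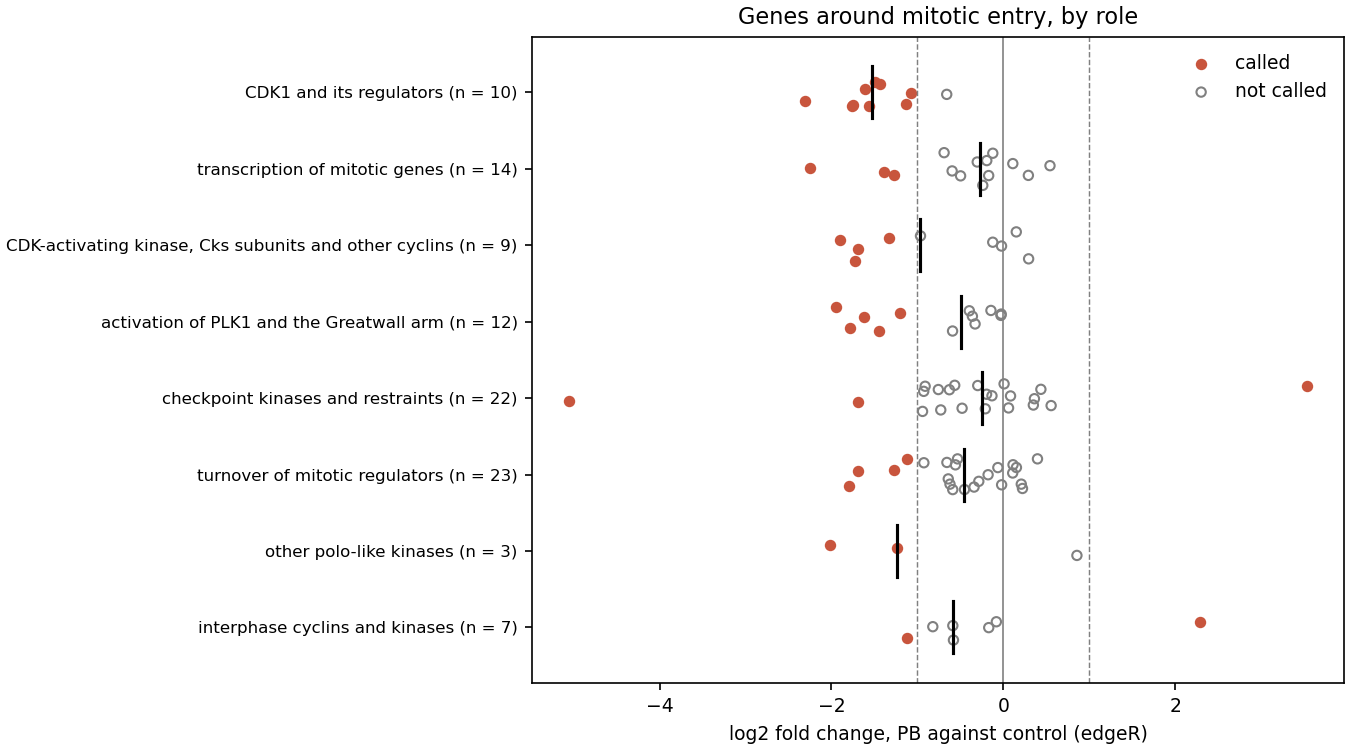
Log2 fold change of PB against control for CDK1 and its 9 regulators and for the 90 tested genes of 7 lists around mitotic entry, with filled points for called genes, open points for the rest, black bars for list medians and dashed lines at -1 and 1. The median of CDK1 and its regulators is -1.53, and each list holds genes that were not called.

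Markers of cell identity were read in the same samples. Of 10 mesenchymal markers of the line, 9 had a mean of at least 1 FPKM, and their summed level was 1053 to 1080 FPKM in the control samples and 1000.4 to 1005 FPKM with PB. VIM made up most of this sum, and 3 of the 10 were called lower (against 6.73% of all tested genes), CAV1 (log2 fold change -1.16), FN1 (-1.46) and TGFBI (-1.50). Only MMP14 (0.62) and ZEB1 (0.12) had a log2 fold change above 0, and 0 were called higher (against 5.36%). The median of the 10 was -0.42. The 18 epithelial markers summed to 442 to 448 FPKM in the control samples and 161 to 166 FPKM with PB. KRT18 and KRT8 made up most of this sum. Of 11 tested, 6 were called lower (against 6.73%) and 1 higher (against 5.36%), ESRP1, with 32 to 44 counts in the control samples and 90 to 138 counts with PB. Called lower were KRT18 (-1.38), KRT8 (-1.60), EPCAM (-1.21), ELF3 (-9.17), KRT7 and CDH1. EPCAM had only 9 to 29 counts in the control samples and 7 to 9 with PB, and its FPKM overlapped between groups. ELF3 had 215 to 309 counts in the control samples and 0 to 1 with PB, so the size of its change is poorly determined. KRT19 (-0.23), CLDN3 (0.038), CLDN4 (0.15) and SPINT1 (0.46) were not called. KRT7, a keratin, had 2840 to 3946 counts in the control samples and 22 to 36 counts with PB. CDH1, the epithelial cadherin, had 387 to 522 counts and 0 to 2 counts, while CLDN7, GRHL2, OVOL1, RAB25 and ST14 had at most 3 counts in every sample. The part of these marker changes in the decrease of the 10 genes was not tested.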

How the data were processed

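Poly(A) RNA of 6 MDA-MB-231 samples was sequenced in 150-base paired-end reads. The authors deposited raw counts per gene, used here as deposited, and FPKM values, of which 100% lay within 0.006 of the count divided by the deposited exonic length and the sample's total count. The submitters' processing notes name hg38, HTSeq 0.6.1, Cufflinks 2.2.1 and DESeq2. The aligner is not given in the sources used here. Total counts ranged from 15681655 to 21986948.

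Genes with a mean of at least 0.1 FPKM were fitted with edgeR 4.0.16 (R 4.3.3, TMM, quasi-likelihood test) over all 6 samples, with Benjamini-Hochberg adjustment over 24200 genes. The fits were tested on simulated data. Standard errors are the log2 fold change over the root of the F statistic. Alternatives were DESeq2 1.42.0, limma 3.58.1, other scalings, filters and fold thresholds, a replicate block, and each sample left out. Within-sample FPKM ratios were compared with exact permutation tests (scipy 1.17.1).

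The members and gene lists were chosen with earlier results of these data known. Named genes were the members, every called gene of each list, and the 5 genes most like CDK1. The MuvB subunits, CDK7, CDKN1A, CHEK1, GADD45A and PLK3, the markers named and the overlapping genes were chosen after their values were seen. Replicates of a group had a chi-square per degree of freedom of 1.45 to 1.92 (genes of 20 counts or more per pair), against 71.1 to 85.1 between groups, so the samples of a group differed by more than sampling noise.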

Additional observations from a re-analysis of the deposited data

How the results depend on the processing

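Over the fits by DESeq2, without a filter, with a mean of at least 1 FPKM and without each of the 6 samples in turn, 9 of the 10 genes were called lower. It was 8 with library size alone (without CDC25C) and 7 with housekeeping scaling and with limma on log2(FPKM + 0.1) (without CDC25C and WEE1). At a log2 fold change of 2, 1 of the 10 genes, CCNB1, and 3 of the 90 other entry genes were lower. With no fold threshold, 64 of those 90 were lower and 17 higher, against 26.1% and 24.1% of all tested genes. With housekeeping scaling 15 were lower and 3 higher. No log2 fold change of the 10 genes changed sign in any of 13 fits. With raw counts in place of FPKM, the rise in the share of WEE1 among the inhibitory kinases was 3.19 percentage points in place of 4.35. The groups share replicate numbers, and deviations of same-numbered samples correlated between -0.048 and 0.038. No shared effect by number was seen, but this cannot show whether the samples were handled in pairs. With the replicate block 9 of the 10 genes, 21 of the other entry genes lower and 2 higher were called, as without it. Values near 1 FPKM, such as PKMYT1 with 90 to 114 counts in the PB samples, carry the largest counting error.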

Other observations

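Sums by role were computed after the values were seen and are given with no test. Cyclins CCNA2, CCNB1 and CCNB2 together measured 338, 329 and 337 FPKM in the control samples and 94.3, 99.7 and 98.0 FPKM with PB. Divided by the FPKM of CDK1, this was 3.33, 3.34 and 3.40 in the control samples and 2.64, 2.74 and 2.55 with PB. This ratio was lower in each PB sample than in each control sample, and of the 3 cyclins CCNB1 had the largest drop in its ratio to CDK1.

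Activators and inhibitors of CDK1 moved by different amounts. The 3 CDC25 messages together measured 65.3 ± 0.257 FPKM without PB and 37.9 ± 0.765 FPKM with it (SD, n = 3). WEE1 and PKMYT1 together measured 9.15 ± 0.164 FPKM and 4.30 ± 0.104 FPKM (SD, n = 3). The ratio of the CDC25 sum to the inhibitor sum was 7.14, 7.27 and 7.02 in the control samples and 8.89, 8.40 and 9.17 in the PB samples, higher in each PB sample than in each control sample. This rests on CDC25B, since without it the ratio of CDC25A and CDC25C to the inhibitor sum was 2.94, 2.94 and 2.88 in the control samples and 2.61, 2.45 and 2.70 with PB, lower in each PB sample. CDC25B was 2.73 ± 0.121 times CDC25A in the control group and 5.87 ± 0.223 times with PB (SD, n = 3).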
